A study of Mus musculus with 6 samples.

Results

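The core autophagy machinery was read as 33 mouse genes, chosen by symbol from the known steps of autophagosome formation. They comprise 5 genes of initiation, 7 of nucleation, 3 of membrane supply, 10 of conjugation, the 5 members of the ATG8 family and 3 cargo receptors. All 33 were found among the 52550 gene identifiers of the count table, and all 33 passed the filter on low counts that left 14031 genes to test. Liver RNA was sequenced from 3 mice carrying the Slc7a11-LTG transgene (TG) and from 3 controls (WT), 1 library per mouse. Where 3 values of a group are listed, they stand in the order of replicates 1 to 3. All mice were males of 8 weeks that had received the same diet lacking methionine and choline (MCD) for 1 week, so no liver on a complete diet stands beside them. The sources used here do not give the promoter or cell type that drives the transgene.

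Macroautophagy encloses part of the cytoplasm in a double membrane, the autophagosome, which then fuses with a lysosome. The ULK1 kinase complex starts the process, a lipid kinase complex around VPS34 marks the site with phosphatidylinositol 3-phosphate, and ATG2 and ATG9 proteins bring in lipid. A ubiquitin-like pair of conjugation reactions then attaches ATG8 proteins to the membrane, where receptors dock cargo through them. In liver the pathway is known for its response to fasting and for the turnover of mitochondria, lipid droplets and protein aggregates. The activity of its proteins is set largely by phosphorylation and lipidation, neither of which a transcript count measures.

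None of the 33 genes passed an adjusted p of 0.05 between TG and WT livers. EdgeR's quasi-likelihood test with Benjamini-Hochberg adjustment over all genes called 0 of 33 members and 0 of 14031 genes, a background of 0%. It did not call Slc7a11 itself, 512-fold higher in TG (adjusted p 0.164), so 0 calls by this test say little about the members. DESeq2 called 0 members where it called 390 genes (2.78% of those tested), and limma voom called 0 where it called 1 gene (0.00713%). The calls over all genes were 305 without TG replicate 3, and 0 members were among them. The smallest adjusted p of a member with edgeR was 0.444, for Atg3. At an unadjusted p below 0.05, 1 member was lower in TG, against 2.37% of all tested genes, and 0 were higher, against 8.68%. The 3 TG libraries lay all below the 3 WT libraries for 2 members, against 6.14% of all tested genes, and all above them for 0 members, against 9.22%. Leaving out any TG replicate or WT replicate 2 left 0 members at an unadjusted p below 0.05. Leaving out WT replicate 1 gave 2, Atg3 lower and Wipi1 higher, against 9.52% of all genes tested in that fit. Leaving out WT replicate 3 gave 3, Atg3, Atg5 and Atg101, all lower, against 16.1%. A count near or below such a background is no result about the members.

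The 95% interval of the fold change lay within a 2-fold change in either direction for 32 of 33 members, against 52.8% of all genes tested and 69.9% of the tested genes with a mean level inside the members' range of 4.24 to 267 CPM, the counts of a gene scaled to a common library size by the TMM method. Member log2 fold changes, TG over WT, ran from -0.43 to 0.31 with a median of -0.094, and 24 of 33 were below 0. Over all tested genes the median was -0.032, and 53.8% were below 0. This small tilt to lower values turned with the scaling. When only library size was scaled, the median of all genes moved to 0.086, that of the members to 0.049, and 12 of 33 were below 0. Relative to all genes the members lay at -0.062 with TMM scaling and at -0.037 with library size only. Single libraries moved this difference further, to 0.018 without TG replicate 3, -0.012 without WT replicate 2, -0.108 without TG replicate 1 and -0.118 without WT replicate 3. The members' own median ran from -0.143 without TG replicate 1 to -0.029 without WT replicate 2.

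**Figure D1:**
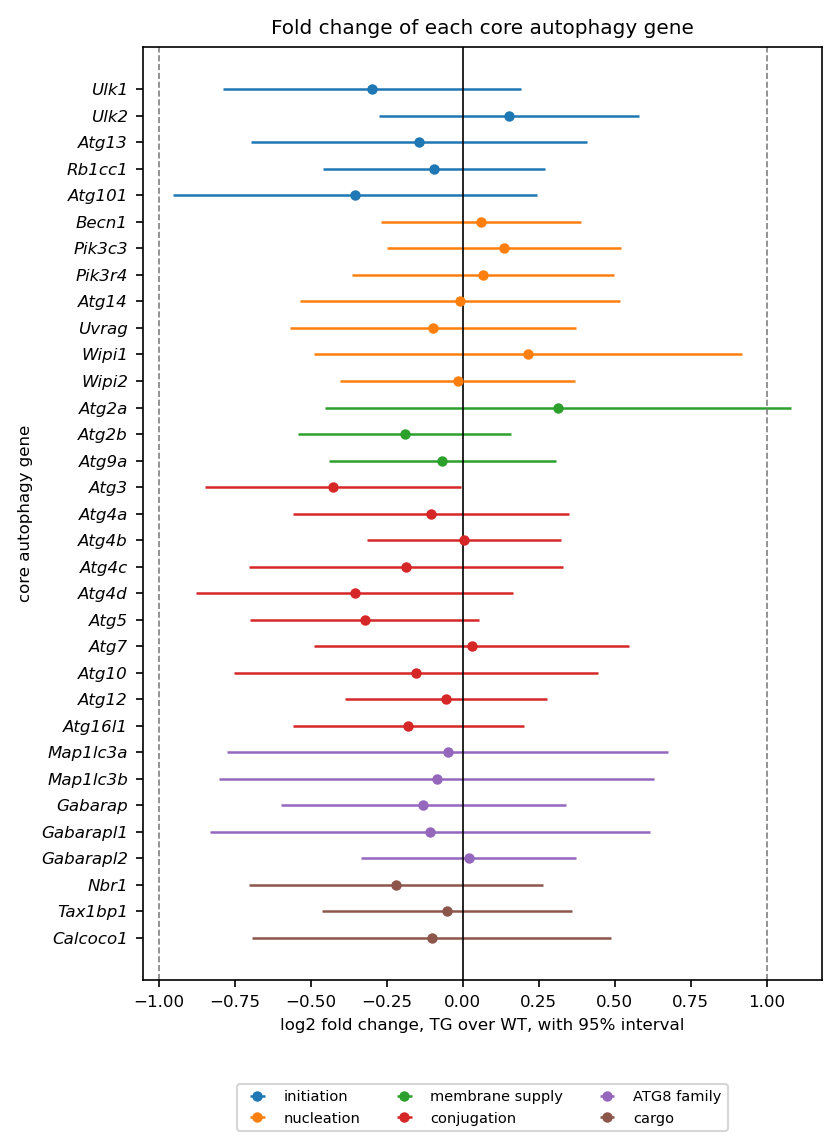
Log2 fold change of each of the 33 core autophagy genes, TG over WT livers (3 mice each), from edgeR; points are estimates, bars are 95% intervals, colours are the steps, and dashed lines mark a 2-fold change either way. The interval of Atg3 is the only one that ends below 0 (-0.85 to -0.0050), and that of Atg2a is the only one that passes 2-fold (up to 1.08).

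The initiation genes encode the ULK kinase complex. Ulk1, the kinase that starts autophagosome formation, had the highest level of the step per length of exon. It measured 107.8, 94.9 and 89.4 CPM across the TG livers against 101.8, 105.8 and 151 CPM across the WT livers. WT replicate 3 stood above the other livers, and the remaining WT values lay inside the TG range, so the groups overlapped. The log2 fold change was -0.30 with a standard error (SE) of 0.21 (edgeR adjusted p 0.651). Ulk2, its paralogue, lay at 52.6 ± 11.1 CPM in TG and 47.3 ± 1.79 CPM in WT (SD, n = 3 livers each here and below), with its highest value in TG replicate 2. Ulk1 made up 63.1% ± 6.21 of the summed per-length level of both kinases in TG and 69.5% ± 4.84 in WT livers, with the groups again overlapping.

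Atg13, the adaptor that links the kinase to its scaffold, repeated the pattern of Ulk1 in the WT livers, with 83.7 CPM in WT replicate 3 against 49.8 and 53.6 CPM in WT replicates 1 and 2. The TG values of Atg13 ran from 47.9 to 64.1 CPM, and its log2 fold change was -0.14 with an SE of 0.24. Without WT replicate 3 that fold change was 0.13, so 1 library set its direction. Rb1cc1, which encodes the scaffold FIP200, lay at 57.6 ± 6.87 CPM in TG and 61.4 ± 4.05 CPM in WT. Atg101, which stabilises ATG13, measured 20.7 to 23.4 CPM across the TG livers against 25.02, 39.9 and 20.3 CPM across the WT livers. Its log2 fold change of -0.35 (SE 0.26) became -0.031 without WT replicate 2, the library with the highest value, and -0.55 without WT replicate 3.

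Of the 7 genes of the nucleation step, 3 had lower and 4 higher estimates in TG, with a median log2 fold change of 0.061. Wipi2, which encodes a reader of phosphatidylinositol 3-phosphate that recruits the conjugation machinery, was the highest of the step per length. It measured 107.2, 84.0 and 87.9 CPM across the TG livers against 97.7, 92.8 and 91.9 CPM across the WT livers. The WT values lay inside the TG range, and the log2 fold change was -0.017 with an SE of 0.17 (edgeR adjusted p 0.982). Becn1, the regulatory subunit Beclin 1, lay at 34.9 ± 0.310 CPM in TG and 33.5 ± 3.08 CPM in WT, a spread of 1.203-fold over all 6 livers. Pik3c3, which encodes the VPS34 lipid kinase, ran from 18.9 to 20.8 CPM in TG and from 16.02 to 20.3 CPM in WT, and Pik3r4, its VPS15 partner, lay at 25.1 ± 4.87 against 23.9 ± 1.81 CPM.

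The subunits that send the VPS34 complex to different sites were also close between groups. Atg14, the subunit of the autophagosome-forming complex, lay at 23.1 ± 4.96 CPM in TG and 23.3 ± 4.93 CPM in WT. Uvrag, the alternative subunit known for endosomal sites, lay at 36.7 ± 4.36 against 39.3 ± 9.03 CPM. Wipi1, the other reader of the lipid, measured 23.2, 26.4 and 23.2 CPM across the TG livers against 31.7, 14.4 and 16.6 CPM across the WT livers. Its log2 fold change of 0.21 (SE 0.30) rested on which WT liver was counted. It was 0.64 without WT replicate 1 (unadjusted p 0.0128, adjusted p 0.521 with edgeR) and 0.0070 without WT replicate 2.

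**Figure D2:**
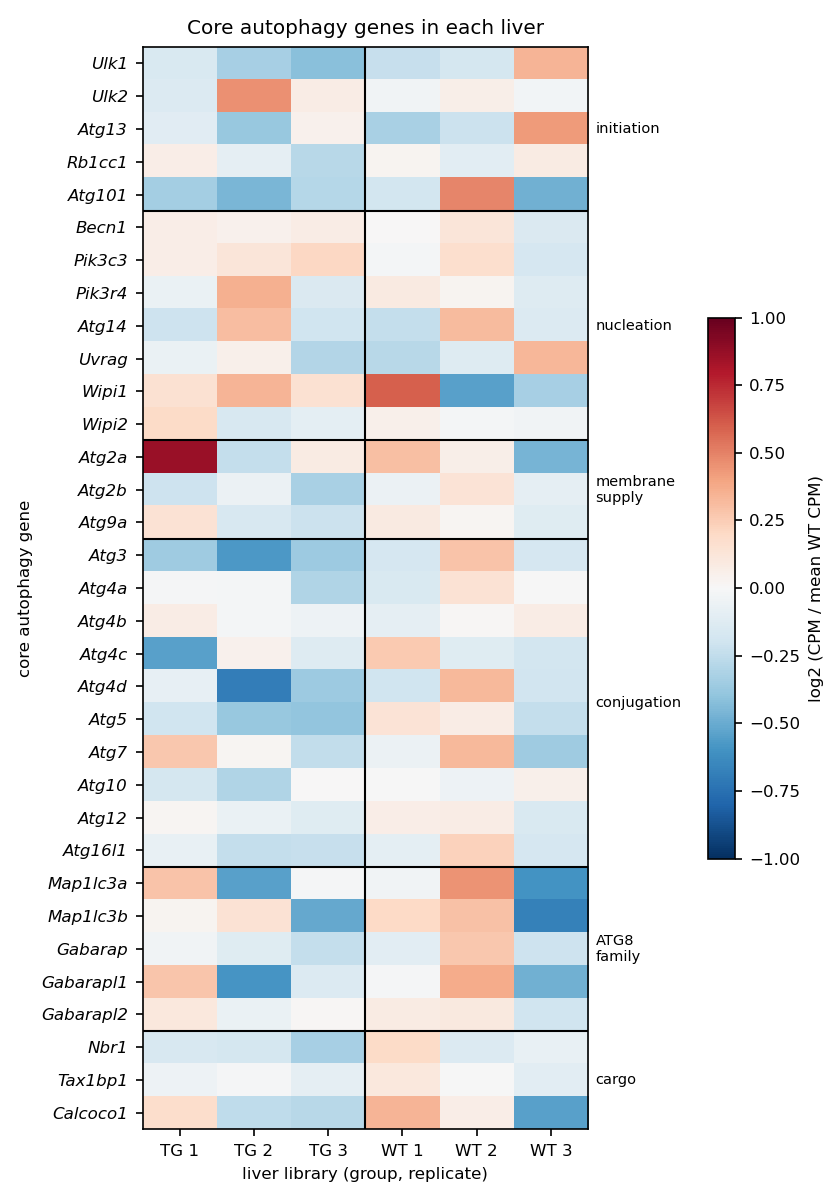
Level of each core autophagy gene (rows, grouped by step) in each liver (columns), as log2 of its CPM over the mean of the 3 WT livers; red is above and blue below that mean. No step has a median on one side of 0 in all 3 TG livers and on the other side in all 3 WT livers, and WT replicate 2 and WT replicate 3 differ most within the ATG8 family (median 0.30 and -0.48).

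Membrane supply held the member with the widest spread. Atg2a, which encodes a lipid transfer protein, measured 141.7, 66.0 and 82.2 CPM across the TG livers against 95.9, 81.2 and 56.2 CPM across the WT livers. TG replicate 1 stood alone at the top, and the other TG values lay inside the WT range. Its log2 fold change was 0.31 with an SE of 0.33 (edgeR adjusted p 0.766) and -0.067 without TG replicate 1. Atg2b, the paralogue, varied less, at 46.5 ± 4.32 CPM in TG and 53.1 ± 4.48 CPM in WT (log2 fold change -0.19, SE 0.15). Atg9a, a scramblase carried on vesicles, lay at 32.4 ± 4.47 against 33.9 ± 2.503 CPM.

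Of the conjugation genes, Atg3 was the member furthest below WT. Atg3 (ENSMUSG00000022663, chr16:45158785-45188538 on the plus strand, build GRCm38) encodes the E2-like enzyme that transfers ATG8 proteins to phosphatidylethanolamine. It measured 53.4, 46.1 and 53.2 CPM across the TG livers against 61.0, 83.3 and 60.9 CPM across the WT livers. Every TG value was below every WT value, and WT replicate 2 stood above the other WT livers. The log2 fold change was -0.43 with an SE of 0.18 and a 95% interval of -0.85 to -0.0050. The unadjusted p was 0.0479 and the adjusted p 0.444 with edgeR's quasi-likelihood test, and the unadjusted p was 0.0493 with DESeq2 and 0.0519 with voom. Without WT replicate 2 the log2 fold change was -0.26 (unadjusted p 0.148 with edgeR), and with library size only it was -0.28 (unadjusted p 0.183). Without each TG replicate in turn the unadjusted edgeR p was 0.0811, 0.133 and 0.0641, and without WT replicates 1 and 3 it was 0.0441 and 0.0346.

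The palindrome TCACGTGA, the core of the CLEAR motif known for binding TFEB and TFE3, was searched for near the starts of the members. RefSeq promoter windows (build GRCm38.p6, 250 bases before to 50 after a start) were present for 27 of the 33 members, with 31 windows in all. The remaining members were not searched. TCACGTGA was found in 1 of the 31 windows, that of Atg3, and in 0.97% of 32851 windows of all genes. The shorter E-box CACGTG, which TCACGTGA contains, was found in 4 of the 31 windows. These were windows of Atg3, Atg5, Atg7 and Atg14, against 7.15% of all windows, with both strands searched. The FOXO motif GTAAACA was found in 0 members and 3.65% of all windows, and the ATF4 composite motif TGATGNAA in 0 members and 3.97%. These are matches of letters and not binding data, and these windows were not measured here. The stretch shown first is chr16:45158579-45158784 (plus strand), the 206 bases of the Atg3 window that precede the first annotated base of the gene. The others are the 30 bases around the E-box in the windows of Atg5 (chr10:44268089-44268388, plus strand), Atg7 (chr6:114670846-114671145, plus strand) and Atg14 (chr14:47568385-47568684, minus strand). The windows of Atg7 and Atg14 lie inside the annotated span of their genes, so they belong to starts other than the outermost one. Capitals mark TCACGTGA and CACGTG.
Atg3: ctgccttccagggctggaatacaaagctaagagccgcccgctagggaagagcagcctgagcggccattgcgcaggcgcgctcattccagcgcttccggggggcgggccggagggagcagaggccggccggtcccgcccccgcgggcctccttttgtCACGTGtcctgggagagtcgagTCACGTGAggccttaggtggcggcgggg
Atg5: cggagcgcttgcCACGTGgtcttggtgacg
Atg7: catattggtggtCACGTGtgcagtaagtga
Atg14: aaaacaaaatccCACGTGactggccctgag
The Atg3 window holds the E-box at 94 bases before the RefSeq start and again at 71 bases, inside TCACGTGA. Log2 fold changes of the 4 genes were -0.43 for Atg3, -0.32 for Atg5, 0.029 for Atg7 and -0.0093 for Atg14, with SEs of 0.18, 0.16, 0.22 and 0.23.

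Atg5, which is joined to ATG12 in the other arm of the conjugation system, was the highest gene of the step per length of exon. With the median length of the coding transcripts, a choice made after seeing the data, Atg3 was higher, at 29.0 against 21.3 CPM per kilobase. Atg5 measured 48.4, 42.7 and 42.4 CPM across the TG livers against 61.2, 58.7 and 47.1 CPM across the WT livers. WT replicate 3 lay below TG replicate 1, the 1 pair that kept the groups from separating. The log2 fold change was -0.32 with an SE of 0.16 (edgeR adjusted p 0.531), and -0.43 without WT replicate 3 (unadjusted p 0.0239). Atg16l1, which places the ATG12-ATG5 conjugate on the membrane, ran from 42.3 to 47.5 CPM in TG and from 44.6 to 58.8 CPM in WT. Atg12, the ubiquitin-like partner of ATG5, lay at 38.9 ± 1.94 against 40.4 ± 3.50 CPM.

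The E1-like and remaining E2-like enzymes were close between groups. Atg7, the E1-like enzyme of both arms, lay at 40.9 ± 7.23 CPM in TG and 40.1 ± 9.58 CPM in WT. Atg10, the E2-like enzyme of the ATG12 arm, had the lowest level of all members per length and lay at 4.01 ± 0.430 against 4.46 ± 0.159 CPM. Among the ATG4 proteases, which trim ATG8 proteins and release them from membranes, Atg4b was the steadiest member of the set and varied 1.13-fold over all 6 livers. Atg4b lay at 33.5 ± 1.55 CPM in TG and 33.5 ± 1.96 CPM in WT (log2 fold change 0.0028, SE 0.14).

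Atg4a lay at 11.6 ± 1.29 CPM in TG and 12.5 ± 1.30 CPM in WT, and Atg4c at 15.9 ± 3.18 against 18.1 ± 3.14 CPM. Atg4d measured 39.7, 25.9 and 32.6 CPM across the TG livers against 36.5, 52.4 and 36.7 CPM across the WT livers. WT replicate 2 was again the highest library, and the log2 fold change of Atg4d was -0.36 with an SE of 0.22. Atg4d shares 19.34% of its exon length with Kri1 on the opposite strand. The sources used here do not give the strand setting of the counting, so reads in that shared stretch cannot be told apart from those of Kri1, which held 728 counts over all libraries.

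The ATG8 family held the highest levels of the set. Gabarapl1 (ENSMUSG00000030161, chr6:129533160-129542346 on the plus strand), a GABARAP protein, led all members per length, at 98.7 ± 29.2 CPM per kilobase of exon in TG and 106.4 ± 30.6 in WT. It measured 259, 142.2 and 194.7 CPM across the TG livers against 213, 276 and 153.5 CPM across the WT livers. Each group spanned nearly the same range, and the log2 fold change was -0.11 with an SE of 0.31 (edgeR adjusted p 0.925). Gabarap lay at 150.8 ± 10.7 CPM in TG and 164.9 ± 29.8 CPM in WT, and Gabarapl2 at 37.4 ± 2.20 against 36.9 ± 4.18 CPM. Map1lc3a, which encodes LC3A, lay at 47.0 ± 12.98 against 48.6 ± 17.2 CPM.

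Map1lc3b, which encodes LC3B, the usual marker of autophagosomes, measured 149.7, 162.5 and 102.7 CPM across the TG livers against 168.1, 180.1 and 91.9 CPM across the WT livers. The replicates numbered 3 were the lowest of each group, and the log2 fold change was -0.085 with an SE of 0.31. The processed pseudogene Gm6055 matches a Map1lc3b transcript at 99.6% over 282 bases and held 1791 counts over all libraries, 12.65% of the 14159 counts of Map1lc3b. Reads of this pair can be split by the counting, and the single value of Map1lc3b is uncertain to that extent. Gm6055 itself measured 19.6, 19.95 and 14.7 CPM across the TG livers against 20.3, 18.6 and 13.5 CPM across the WT livers. Added up, the gene and its copy lay at 169.4, 182.4 and 117.4 CPM in TG and 188.5, 198.7 and 105.4 CPM in WT livers, with the same overlap. Other near-identical copies held few counts, at most 0.51% of the parent gene, for Gabarapl2.

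Shares of the ATG8 transcript pool differed between groups by less than the SD of either group. Of the summed level per kilobase of exon, Gabarapl1 took 38.2% ± 5.19 in TG and 38.8% ± 1.72 in WT, Gabarap 32.6% ± 4.59 and 33.3% ± 3.59, and Map1lc3a 15.4% ± 2.13 and 14.8% ± 1.65. Map1lc3b took 7.4% ± 2.26 in TG and 7.1% ± 1.22 in WT when its whole annotated exon length was used. With the median length of the coding transcripts, a choice made after seeing the data, the shares of Map1lc3b ran from 13.0% to 21.8% in TG and from 13.6% to 18.5% in WT, since its annotated exons include long variants. The order of levels below Gabarapl1 and Gabarap therefore depends on the length used.

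**Figure D3:**
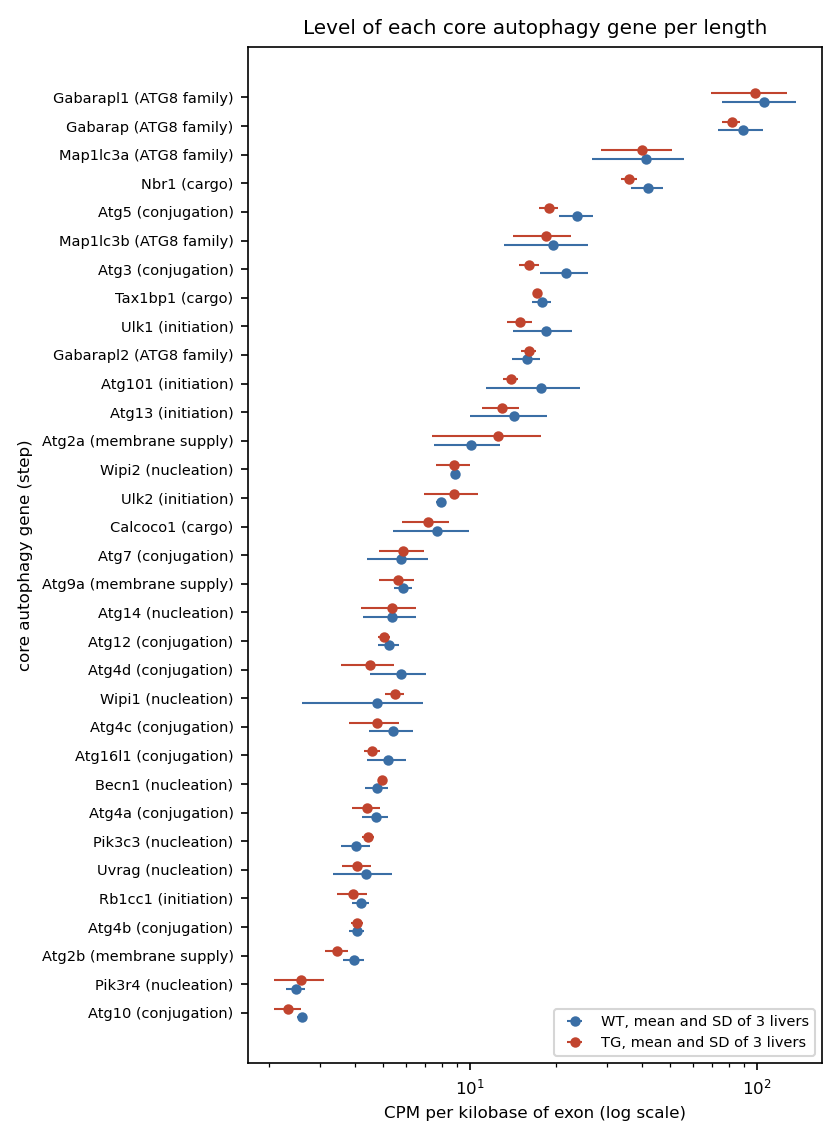
Level of each core autophagy gene in CPM per kilobase of exon (log axis), sorted by the mean of all 6 livers; points are the mean and bars the SD of 3 TG (red) or 3 WT (blue) livers. Gabarapl1 (98.7 in TG, 106.4 in WT) and Gabarap (81.8, 89.4) lie at the top, Pik3r4 (2.59, 2.48) and Atg10 (2.34, 2.60) at the bottom.

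Per length, the order of the members ran from Gabarapl1 down to Pik3r4 and Atg10. Over all 6 livers, mean levels per kilobase of exon were 102.6 CPM for Gabarapl1, 85.6 for Gabarap, 40.5 for Map1lc3a and 38.9 for Nbr1, with SDs that overlapped between Gabarapl1 and Gabarap and between Map1lc3a and Nbr1. Atg5 at 21.3, Map1lc3b at 18.96, Atg3 at 18.9 and Tax1bp1 at 17.51 followed, and neighbours among these 4 overlapped in their SDs as well. The 5 subunits of the VPS34 complex lay between 2.53 (Pik3r4) and 5.36 (Atg14) CPM per kilobase. For Becn1 this value depends on the length, since it was 4.84 with the whole exon length, of which 43.93% is shared with Cntd1 on the opposite strand, and 22.9 with the median coding transcript. Cntd1 itself held 23 counts over all libraries.

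Nbr1 (ENSMUSG00000017119, chr11:101552149-101581951 on the plus strand), an autophagy receptor that binds ubiquitin and ATG8 proteins, was the highest of the 3 cargo receptors and the other member whose groups did not overlap. It measured 257, 254.9 and 228 CPM across the TG livers against 329, 261 and 272 CPM across the WT livers. The highest TG and the lowest WT value differed by less than the spread within either group. The log2 fold change was -0.22 with an SE of 0.21 (edgeR adjusted p 0.745), and -0.11 without WT replicate 1. With library size only the groups of Nbr1 and of Atg3 overlapped, and Pik3c3 was the 1 member whose groups did not. Tax1bp1, a receptor of ubiquitinated aggregates, lay at 171.9 ± 4.73 CPM in TG and 178.0 ± 13.1 CPM in WT, and Calcoco1, a receptor known for endoplasmic reticulum turnover, at 41.1 ± 7.63 against 44.1 ± 12.95 CPM.

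**Figure D4:**
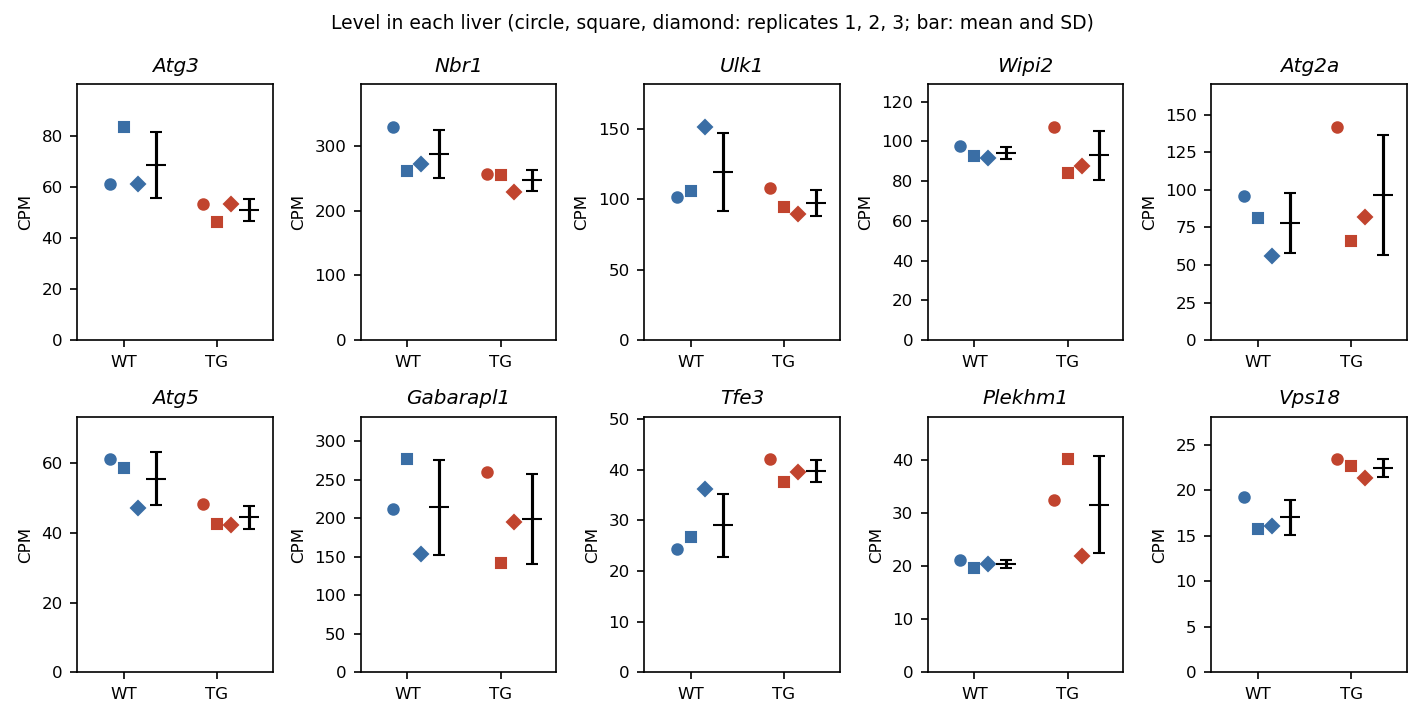
CPM in each liver for the core genes given in full (Atg3, Nbr1, Ulk1, Wipi2, Atg2a, Atg5, Gabarapl1) and for 3 other pathway genes at an unadjusted p below 0.05 (Tfe3, Plekhm1, Vps18); WT in blue, TG in red, symbols for replicates 1 to 3, black bars for mean and SD. The groups are apart in Atg3 and Nbr1, with TG lower, and in Tfe3, Plekhm1 and Vps18, with TG higher.

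The highest and lowest values of the members were also counted by liver. The ratio of the highest to the lowest liver had a median of 1.44 over the members, against 1.72 for tested genes in the same range of levels, and ran from 1.13 for Atg4b to 2.52 for Atg2a. WT replicate 2 was the highest liver for 14 members, among them 6 of 10 conjugation genes and 4 of 5 ATG8 genes. WT replicate 3 was the lowest for 11, TG replicate 3 for 10 and TG replicate 2 for 7. With library size only this turned, with WT replicate 3 highest for 11 members, WT replicate 2 lowest for 16 and TG replicate 3 lowest for 0. The same counts were not made over all tested genes, so they have no background and are no result about the members. The TMM factor of WT replicate 2 was 0.826 and that of WT replicate 3 was 1.13, the lowest of the 6 and, after TG replicate 3 (1.15), the highest. The median of the members on the log2 scale, relative to the mean of the WT livers, was -0.032, -0.092 and -0.20 for the TG livers and -0.011, 0.074 and -0.15 for the WT livers, so the groups overlapped in this measure too.

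Markers of macrophages differed between groups by more than the core autophagy genes did, with a median log2 fold change of 1.96. In bulk liver, fewer cells of a type and less RNA per cell cannot be told apart. All 23 macrophage markers had higher estimates in TG, 22 at an unadjusted p below 0.05 with edgeR, against 8.68% of all genes tested. At an adjusted p below 0.05 edgeR called 0 and DESeq2 17 of them, against 2.78% of all genes with DESeq2. All TG livers lay above all WT livers for 7 of the 23, against 9.22% of all genes tested. The summed level of the 23 was 2919, 4995 and 923 CPM across the TG livers against 577 to 928 CPM in WT. TG replicate 3 thus lay inside the WT range of this sum. The 11 neutrophil markers summed to 162.1, 293 and 6.30 CPM across the TG livers, against 3.33 to 9.84 CPM in WT. The 10 stellate and fibroblast markers (9 higher, 1 lower in TG) summed to 382 to 441.5 CPM in TG and 274 to 369 CPM in WT. The 7 cholangiocyte markers (4 higher, 3 lower) summed to 62.97 to 74.3 CPM in TG and 49.8 to 58.7 CPM in WT. Both of these sums were apart between groups. Sums of the 8 endothelial and 12 lymphocyte markers overlapped, at 237 to 255 against 95.6 to 266 CPM and 7.87 to 35.2 against 6.66 to 11.7 CPM. The 12 hepatocyte markers, all above 0 in every library, summed to 112600, 105600 and 95930 CPM across the TG livers, against 143200, 182500 and 96280 CPM across the WT livers. Albumin makes up most of this sum, and the markers did not move as one, with 7 of the 12 highest in WT replicate 2, 2 in WT replicate 1 and 3 in TG livers. The part of cell makeup in the differences of the core genes was not tested.

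Of 71 other genes of the pathway that were tested, 3 were higher in TG at an unadjusted p below 0.05 and 0 lower, against 8.68% and 2.37% of all genes tested. A share near or below that background is no result about these genes, and their values are given as a description. Of 19 other genes of autophagosome formation that were tested, 7 had lower and 12 higher estimates, with 0 at an unadjusted p below 0.05 and a median log2 fold change of 0.014. Of 15 genes of fusion with lysosomes, 2 were higher at an unadjusted p below 0.05 and 0 lower. Plekhm1, an adaptor between ATG8 proteins, RAB7 and the HOPS tether, measured 32.6, 40.2 and 22.0 CPM across the TG livers against 21.1, 19.7 and 20.5 CPM across the WT livers. All TG values were above all WT values, but TG replicate 3 was above them by less than the TG livers differed. Its log2 fold change was 0.63 with an SE of 0.23 (edgeR adjusted p 0.388). The macrophage sum given above was likewise highest in TG replicates 1 and 2, and its part in this difference was not tested.

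Vps18, a core subunit of HOPS, measured 23.4, 22.6 and 21.3 CPM across the TG livers against 19.2, 15.7 and 16.1 CPM across the WT livers, with no overlap (log2 fold change 0.40, SE 0.16, edgeR adjusted p 0.425). Of 10 transcription factors known for autophagy genes, 1 was higher and 0 were lower at an unadjusted p below 0.05. This was Tfe3, a relative of TFEB that binds the CLEAR motif, which measured 42.0, 37.6 and 39.6 CPM across the TG livers against 24.3, 26.8 and 36.1 CPM across the WT livers. The TG livers were alike and WT replicate 3 lay just below them (log2 fold change 0.45, SE 0.18, edgeR adjusted p 0.429). Tfeb itself lay at 11.4 ± 2.36 CPM in TG and 14.7 ± 4.83 CPM in WT. Tfe3 did not pass with library size only or with DESeq2, nor Vps18 with DESeq2 or with no filter on low counts. These counts also changed as each library was left out. The share of all tested genes at an unadjusted edgeR p below 0.05 likewise ran from 5.28% to 16.1%. With TG replicate 1, TG replicate 2 or WT replicate 2 left out, no fusion gene or transcription factor lay at an unadjusted p below 0.05. Plekhm1 did so without TG replicate 3 and without WT replicate 3, Vps18 without WT replicate 1, and Tfe3 without WT replicate 3. Tfeb was lower at an unadjusted p of 0.0475 without WT replicate 1 (log2 fold change -0.61, edgeR), and Ppara, a lipid-sensing receptor, at 0.0195 without WT replicate 3 (-0.56).

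Upstream control of ULK1 and other receptors gave 0 genes at an unadjusted p below 0.05 in the edgeR comparison of the groups. Of 17 genes of mTORC1 and AMPK, 12 had lower and 5 higher estimates, with a median log2 fold change of -0.034. Of 11 other cargo receptors, 7 had lower and 4 higher estimates, with a median of -0.090. Sqstm1, the receptor p62 and itself a target of NRF2, measured 931, 587 and 1109 CPM across the TG livers against 446, 482 and 1130 CPM across the WT livers. WT replicate 3 lay just above the highest TG liver, and the other WT livers lay below all TG livers. The log2 fold change was 0.35 with an SE of 0.45 (edgeR adjusted p 0.817), and 0.92 without WT replicate 3 (unadjusted p 0.0350, adjusted p 0.285). Without that library, 16.1% of all genes tested lay at an unadjusted edgeR p below 0.05, against 11.05% with all libraries. Several upstream genes were among them and are given as a description. Prkaa1 and Prkab2, subunits of AMPK, and Ddit4, an inhibitor of mTORC1, were higher there, and Tsc1, another inhibitor, was lower. Their log2 fold changes were 0.52, 0.97, 1.66 and -0.51. The receptor Optn was lower (-0.68) there too. Single genes passed the same threshold, each lower in TG, when other libraries were left out. Without TG replicate 3 these were Prkaa2, a catalytic subunit of AMPK, and Stbd1, a glycogen receptor. Sesn2 did so without WT replicate 2 and Nrbf2 without WT replicate 1. The share of all genes at that threshold in these fits was 13.02%, 7.1% and 9.52%, in that order.

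Library totals lay between 16016640 and 17463329 counts. Slc7a11, the gene of the transgene and the check of the labels, held 72729, 24359 and 57242 counts across the TG livers and 46, 44 and 204 across the WT livers. This matched the label of every library. With 3 livers a group an exact permutation test cannot give a two-sided p below 0.1, so such tests were not used for single genes.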

How the data were processed

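Liver RNA of 3 TG and 3 WT mice was measured as read counts per gene. The deposited table holds whole-number counts per Ensembl gene, not normalized, made by the authors from RNA libraries (VAHTS Universal V6 kit, per the labels' protocols). TopHat, Cufflinks and the build mm10 appear in the submitters' processing notes. Their versions, the counting program, its annotation and its use of strand were not given in the sources used here. In the labels the molecule field names genomic DNA, while the protocols describe RNA. Of 52550 identifiers, 147 had no symbol, with 0.0034% or less of the counts of any library.

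The filterByExpr function removed genes of low count and kept 14031. Groups were compared in R 4.3.3 by the two-sided quasi-likelihood test of edgeR 4.0.16 on TMM-scaled counts, using robust dispersions. P-values were adjusted over all genes tested by the Benjamini-Hochberg method, at a threshold of 0.05. The SE is the log2 fold change over the root of F, and intervals are 95%. The common biological coefficient of variation was 0.329. Alternatives were other scalings, other filters, DESeq2 (version 1.42.0), limma voom (3.58.1), the replicate number as a term, and each library left out. The fits were tested on simulated data with the same variation for every gene, so that test does not measure their power on these libraries.

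Levels between genes were compared per kilobase of exon in the GENCODE annotation of GRCm38. Near-identical copies were searched with blastn (2.17.0), keeping matches of at least 96% over at least 250 bases. The members and lists were chosen with earlier results of these data known. Members were given in full where the unadjusted p was below 0.05, the groups did not overlap, or the level per length was the highest of a step; of other lists, genes at an unadjusted p below 0.05. Ulk2, Atg13, Atg101, Wipi1, Atg4d, Map1lc3b, Sqstm1 and Tfeb were given more fully after their values were seen. The replicates are separate mice. Counts of 3 correspond to 0.172 to 0.187 CPM, a limit that covers counting error only.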

Additional observations from a re-analysis of the deposited data

How the results depend on the processing

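Of 462 fold changes of the members under the 14 alternatives, 458 stayed within 1 SE of the values given above. The other 4 came from leaving out a library. The alternatives share all or most of their livers, so this count does not measure how the values would vary between mice. It also hides changes of sign, as members below 0 went from 24 to 12 of 33 with library size only. No member was called under any alternative. At an unadjusted p below 0.05 the member count of 1 became 0 without a filter on low counts, with voom, with scaling by library size alone and with the replicate number as a block, and ran from 0 to 3 as each library was left out. The share of all genes tested at that threshold was 11.05% in the main fit. It was 7.94%, 8.92%, 10.05% and 7.9% in those settings, in that order, and ran from 5.28% to 16.1% as each library was left out. The members' median log2 fold change was 0.049 with library size only and ran from -0.143 to -0.029 as each library was left out. Members whose groups did not overlap numbered 1 with library size only (Pik3c3), 1 with upper quartile scaling (Atg3) and 3 without a filter on low counts (Atg2b, Atg3 and Nbr1). The share of all genes without overlap is given above for the main settings only, so these counts have no background of their own. Over all genes DESeq2 called 390 and voom 1, and leaving out a library gave 0 to 305, the 305 without TG replicate 3. The cause of these shifts was not tested. Deviations of same-numbered livers correlated at 0.183, -0.245 and 0.139, and those of differently numbered livers at -0.307 to 0.171. With 3 livers a group these values can neither show nor exclude a pairing by replicate number. With the block, 1109 genes against 1551 lay at an unadjusted p below 0.05, Atg3 had an unadjusted p of 0.0955 with edgeR, Plekhm1 passed that threshold while Vps18 and Tfe3 did not, and Stbd1 (log2 fold change -0.89) and Prkaa2 (-0.46) were lower at it. The depth is ample for these genes, the lowest of which averaged 4.24 CPM, and 3 livers a group limit what can be told apart.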
